A study of Rattus norvegicus with 18 samples.

Results

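The B and plasma cell genes described here are 8 genes of the B lineage, Igh-6, Jchain, Mzb1, Cd79a, Cd79b, Ms4a1, Pou2af1 and Bach2. They were chosen by name, out of 32285 genes in the retina count table and 32552 in the RPE/choroid count table, after earlier results of these data were known, so their levels are a description. In RPE/choroid, 7 of the 8 were listed and paired with an Ensembl identifier, and Cd79a was dropped because the comparison tables hold no such symbol. In retina, 6 were listed under their own symbol, while Jchain was found there as Igj and Igh-6 by its identifier. The same identifier is named Igh-1a in the retina table, so the class of heavy chain that Igh-6 encodes is not settled by the tables.

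Bulk RNA-seq compared aging, and oral treatment of aged rats with 8-AG (8-aminoguanine), in wild-type female Fischer 344 rats. There were 18 libraries, 3 in each of 6 groups: neural retina and RPE/choroid (the pigment epithelium with the vascular layer behind it) from young rats of 4 months, from untreated aged rats of 24 months, and from aged rats that drank 8-AG. The dose was 5 mg/kg per day in drinking water for 8 weeks, started at 22 months, so the treated rats were also 24 months old, and the untreated aged rats drank water alone. RPE/choroid RNA was washed from the eye cup that remained after the retina had been lifted off, so it came from a mixture of pigment epithelium and choroidal vessels with their cells.

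B cells recognise antigen through a membrane immunoglobulin that signals by way of the CD79A and CD79B chains. When they mature into plasma cells, the antigen receptor machinery is shut down and heavy and light chains are secreted in bulk, with J chain joining the units of IgM and IgA and MZB1 assisting their folding in the endoplasmic reticulum. BACH2 is a repressor that holds back the plasma cell programme, and POU2AF1 is the coactivator of the octamer sequence found in immunoglobulin promoters. The healthy neural retina lies behind a blood barrier and holds few lymphocytes, whereas the choroid is a vascular tissue with resident immune cells.

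Promoter sequence from RefSeq (build GRCr8) matched 3 of the 8 members. Those of Jchain and Bach2 are shown because these genes stand for different patterns described below. They are secretory genes that varied together between libraries, and a repressor that was lower with age. The age change of Jchain itself was not called. Each line gives the 250 bases before the annotated start on the + strand, at chr14:19822726-19822975 for Jchain and chr5:51513155-51513404 for Bach2, with any match to a searched motif in capitals.
Jchain: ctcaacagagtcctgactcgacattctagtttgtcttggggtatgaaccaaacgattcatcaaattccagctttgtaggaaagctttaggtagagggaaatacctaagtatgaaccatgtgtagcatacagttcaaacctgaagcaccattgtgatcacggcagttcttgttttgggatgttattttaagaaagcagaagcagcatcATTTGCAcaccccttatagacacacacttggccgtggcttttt
Bach2: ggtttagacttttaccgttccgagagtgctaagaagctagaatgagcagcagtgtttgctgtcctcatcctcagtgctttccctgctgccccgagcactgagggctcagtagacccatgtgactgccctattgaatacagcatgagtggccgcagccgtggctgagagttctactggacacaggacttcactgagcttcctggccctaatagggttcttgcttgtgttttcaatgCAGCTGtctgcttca
4 motifs were searched on both strands. The full octamer ATGCAAAT matched neither sequence and occurred in 1.56% of 33469 promoters. Its shorter form TGCAAAT, which lies inside the octamer, matched Jchain on the opposite strand, beginning 43 bases before the start (position -43), and occurred in 3.54%. The site TGAGTCA, of the type bound by BACH proteins, matched neither and occurred in 4.05%. The E box CAGCTG matched Bach2 at position -15 and occurred in 12.0%. A match is a run of letters and not a measured binding site.

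Levels are given as CPM, the reads a gene would have in a library of 1000000 reads after TMM normalization. They follow the order of libraries 1, 2 and 3, or are summarized as mean ± SD (n = 3). Library totals ran from 12283425 to 15644317 counts in retina and from 28573828 to 48203050 in RPE/choroid, and the tissues were normalized apart, so levels are not compared between them. Following the study, a gene counted as called when it differed by more than 1.5-fold and the quasi-likelihood F-test of edgeR gave P below 0.05 before adjustment, and the p-values printed are adjusted over all genes. Labels give total RNA for the 3 retina libraries of treated rats and polyA RNA for the other 15, although the deposited protocol describes poly-A capture throughout. By these labels, RNA type splits exactly by treatment in treated against aged retina. If the labels hold, that difference cannot be told apart from treatment there, and its part in those results was not tested. Young RPE/choroid libraries 1 and 2 carry the same number with the letters L and R, as do aged libraries 1 and 2, which may or may not mean the eyes of 1 rat, so the tests may in part measure spread within animals.

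RPE/choroid library 1 of the treated rats stood apart from the other 8. Its summed level of 10 rod genes was 50500 CPM against 539 to 18100 elsewhere, and that of 6 skeletal muscle genes was 43000 CPM against 27.8 to 4160. It was low in choroidal cells, with 618 CPM over 12 microglia and macrophage genes (2670 to 5210 elsewhere), 19.9 CPM over 12 T and NK cell genes (141 to 261) and 596 CPM over 6 endothelial genes (3080 to 6740). Member fold changes and the correlations that include it are given with and without it.

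In aged RPE/choroid, Igh-6 was 61.9-fold higher than in young RPE/choroid by mean CPM, Pou2af1 was 3.95-fold higher, and Bach2 fell to 0.266 of its young level. Of the 7 members tested, 2 were called higher, 1 was called lower and 4 were not called, where the rule called 1.35% of all 16047 genes (0.717% higher and 0.636% lower). With a minimum of 10 counts in every library, which leaves Pou2af1 untested, Igh-6 and Bach2 were the members called. The groups did not overlap for the same 3 members, against 7.1% of all genes. The median log2 fold change of the 7 was 1.28, and that of all genes 0.02. None of the 3 calls passed adjustment over all genes (adjusted p = 1.0 in edgeR with Benjamini-Hochberg adjustment, as for the other 4 members), and no gene of the table did (0.0%): 341 genes (2.13%) had an unadjusted P under 0.05, and DESeq2 gave 29 genes an adjusted p under 0.05. These 29 included Igh-6 (adjusted p = 1.81e-11) and Bach2 (adjusted p = 0.00362).

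Among the secretory genes, Igh-6 (ENSRNOG00000048402), an immunoglobulin heavy chain gene, measured 0.967, 1.32 and 4.58 CPM in young RPE/choroid, from 29, 49 and 219 counts. In aged RPE/choroid it measured 43.3, 175 and 207 CPM, from 1343, 5932 and 6139 counts. Every aged library exceeded every young library, and the lowest aged library was still far above the highest young one. The log2 fold change was 5.91 (standard error 0.94), which ranked 6 among 16047 genes by P. It was called under each of the 15 alternatives tried, with values from 5.55 to 6.91. Heavy chain genes form a family of similar sequences, and how reads shared between them were counted in RPE/choroid is not stated, so the split of reads among them is uncertain.

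Jchain (ENSRNOG00000003666), which encodes the joining chain of IgM and IgA, measured 2.23, 1.05 and 9.33 CPM in young and 4.07, 19.9 and 4.93 CPM in aged RPE/choroid. Young library 3 lay above aged libraries 1 and 3, so the groups overlapped, and the log2 fold change of 1.19 (standard error 1.0) was not called. Mzb1 (ENSRNOG00000022009), the folding cofactor, measured 0.7, 0.378 and 2.13 CPM in young and 1.61, 6.75 and 2.84 CPM in aged libraries. Its log2 fold change of 1.78 (standard error 0.82) was not called, and again a single library, young 3, reached into the aged range. Without young library 3 the values were 2.53 for Jchain and 2.76 for Mzb1, and 6 of the 7 members were called, all but Ms4a1, in a fit that called 1.39% of all genes. Without aged library 2, which held the highest value of both genes, they were 0.08 and 1.03, neither called, and Igh-6 and Bach2 were the 2 members called, where that fit called 2.54% of all genes.

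Of the receptor genes, Cd79b (ENSRNOG00000011917), a signalling chain of the B cell receptor, measured 0.5, 0.782 and 1.78 CPM in young and 1.32, 2.89 and 3.34 CPM in aged RPE/choroid. The log2 fold change was 1.28 (standard error 0.6). Ms4a1 (ENSRNOG00000020945), which encodes the B cell surface protein CD20, measured 0.467, 0.324 and 0.795 CPM in young and 0.678, 1.71 and 0.911 CPM in aged libraries, with a log2 fold change of 1.04 (standard error 0.54). Both genes had their highest young value above their lowest aged value, and neither was called.

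The transcriptional regulators went opposite ways. Pou2af1 (ENSRNOG00000011500), the octamer coactivator, measured 0.200, 0.297 and 0.836 CPM in young and 1.32, 2.80 and 1.15 CPM in aged RPE/choroid, without overlap. It reached the level that the filter on low counts asks for in all 3 aged and in 1 of the young libraries, so it entered the test through the aged group and its call is a description. Its log2 fold change was 1.95 (standard error 0.68), and the call held in 8 of 14 alternatives. Without young library 3 it was 2.78. The losses include all 3 groups in a single fit (1.96), libraries with the same label number summed (1.56), and the fits without aged library 2 (1.44), young library 1 (1.61) or young library 2 (1.72). Bach2 (ENSRNOG00000006170), the repressor of the plasma cell programme, which T cells and neurons also use, measured 1.77, 2.40 and 1.82 CPM in young and 0.516, 0.471 and 0.608 CPM in aged libraries. The groups were 2.0 ± 0.351 CPM against 0.532 ± 0.0694 CPM, and its log2 fold change was -1.91 (standard error 0.32). It was called under each of the 15 alternatives, from -2.0 to -1.77, including the fit with rod level as a covariate, at -1.86. That fit called Igh-6, Pou2af1 and Mzb1 (1.5) higher as well, and 7.1% of all genes.

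In bulk RNA, more B lineage cells and more of these transcripts per cell cannot be told apart. Markers of other cells are therefore given beside these values. The 12 T and NK cell genes summed to between 141 and 225 CPM in young and between 181 and 261 CPM in aged RPE/choroid, and the 12 microglia and macrophage genes to between 2670 and 3740 CPM in young and between 3060 and 5210 CPM in aged. Erythroid genes (4 found of 7) were at 235 to 3280 CPM in young and 157 to 220 CPM in aged libraries, where the lowest young value was close to the highest aged one. Neutrophil genes (5 found of 8) went from between 8.41 and 14.3 CPM to between 15.8 and 29.1 CPM, and endothelial genes (6 found of 7) from between 5200 and 6740 CPM to between 3080 and 4510 CPM, both without overlap. No marker found in a table was at 0 in all its libraries. The part of these other cells in the members' differences was not tested.

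**Figure D1:**
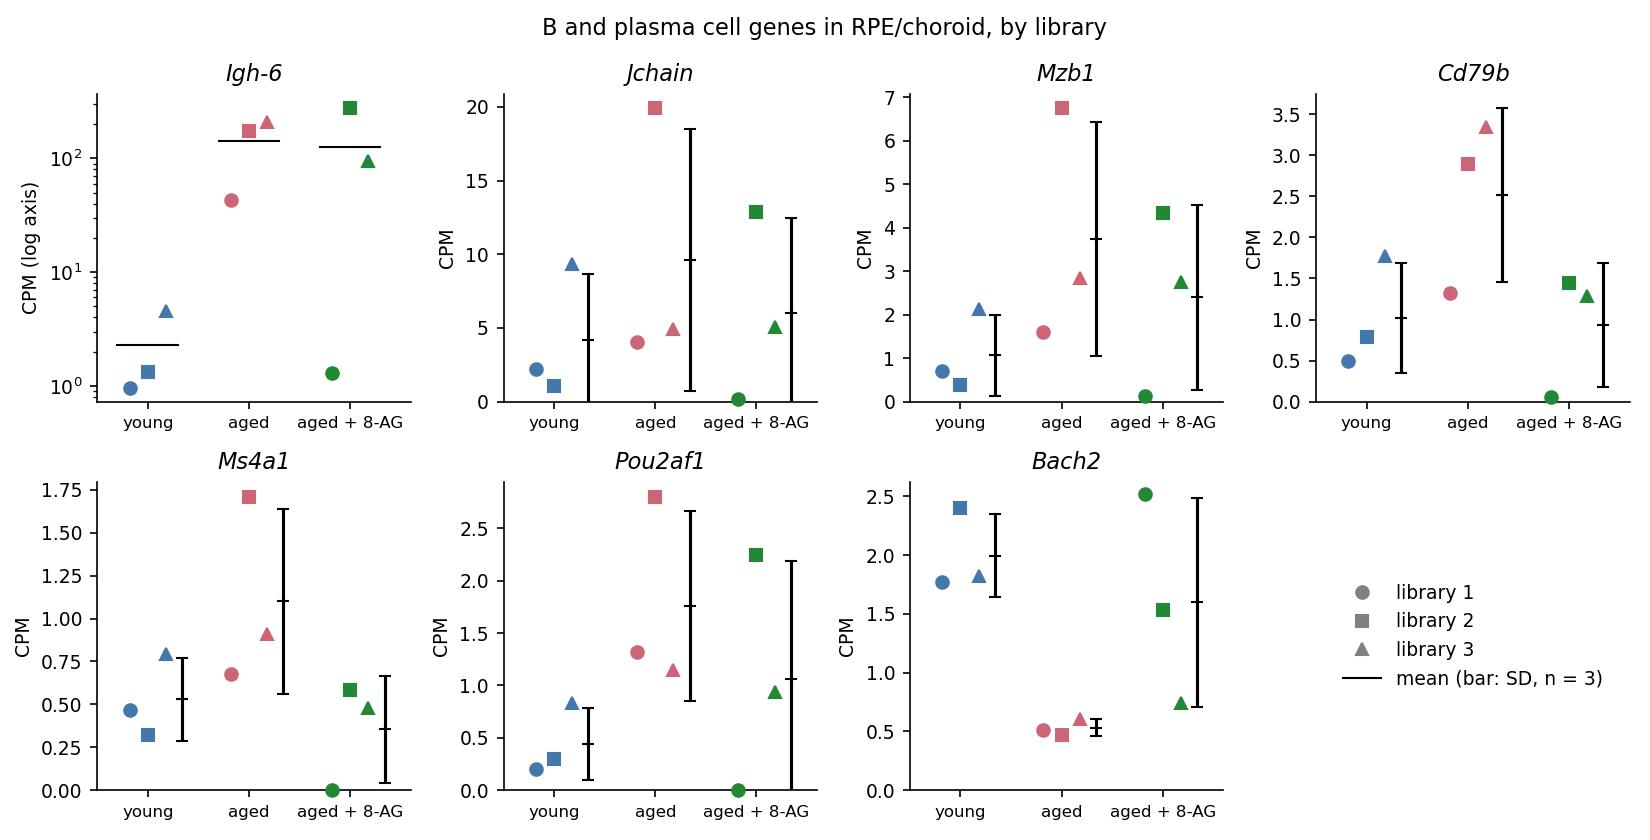
Level of 7 members in the 9 RPE/choroid libraries (CPM on the vertical axis, logarithmic for Igh-6 only; groups on the horizontal axis; a marker shape for each library number; black marks are means and bars the SD, n = 3, cut at 0 and not drawn for Igh-6). Igh-6 was between 43.3 and 207 CPM in aged against 0.967 to 4.58 CPM in young libraries, the aged values of Bach2 all lay under the young ones, and treated library 1 was the lowest of the 9 for Jchain, Mzb1, Cd79b, Ms4a1 and Pou2af1.

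The 6 members other than Bach2 tended to be high in the same libraries. Aged library 2 held the highest value of the 9 for 4 of the 7 members, Jchain, Mzb1, Ms4a1 and Pou2af1, and treated library 1 the lowest for 5 of the 7. Young library 3 was the highest young library for all 6. Rod genes summed to 16400, 18100 and 1790 CPM in young and to 10500, 539 and 15200 CPM in aged RPE/choroid, so young library 3 and aged library 2 had the least rod RNA of their groups, while aged library 3, with the highest Cd79b of the 9 and the highest aged Igh-6, had the most of its group. Young library 3 also had the most erythroid RNA (3280 CPM), and the part of these contents in the members' levels was not tested. Over the 9 libraries, on the log2(CPM + 0.5) scale, Pearson's r with Igh-6 was 0.889 for Pou2af1, 0.882 for Mzb1, 0.767 for Cd79b, 0.742 for Jchain and 0.638 for Ms4a1, and -0.787 for Bach2. Without treated library 1 they were 0.878, 0.868, 0.736, 0.69, 0.537 and -0.737 in the same order. These coefficients describe 9 libraries that share their choroidal content and 3 groups, and carry no test.

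The ratio of secretory genes within a library set Igh-6 apart from the rest. In young RPE/choroid the CPM of Igh-6 divided by that of Jchain was 0.433, 1.26 and 0.491. In aged RPE/choroid it was 10.7, 8.78 and 42.0, and in treated rats 8.40, 21.7 and 18.7, so all 6 libraries from rats of 24 months lay above all 3 young ones, treated library 1 included. That library had only 5 counts of Jchain and 42 of Igh-6. The same ratio for Mzb1 stayed between 0.229 and 0.359 in young, 0.339 and 0.575 in aged and 0.335 and 0.8 in treated libraries. A further heavy chain gene, named Ighm in the retina table (ENSRNOG00000034190), is no member but shows the contrast: it reached 634 ± 589 CPM in young and 1290 ± 1170 CPM in aged RPE/choroid, and its ratio to Jchain lay between 140 and 219 in young, 87.6 and 198 in aged and 136 and 188 in treated libraries. The age difference of Igh-6 was therefore present per unit of Jchain, while the Ighm ratios of the groups overlapped. The ratios were formed after the values had been seen and were not tested.

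**Figure D2:**
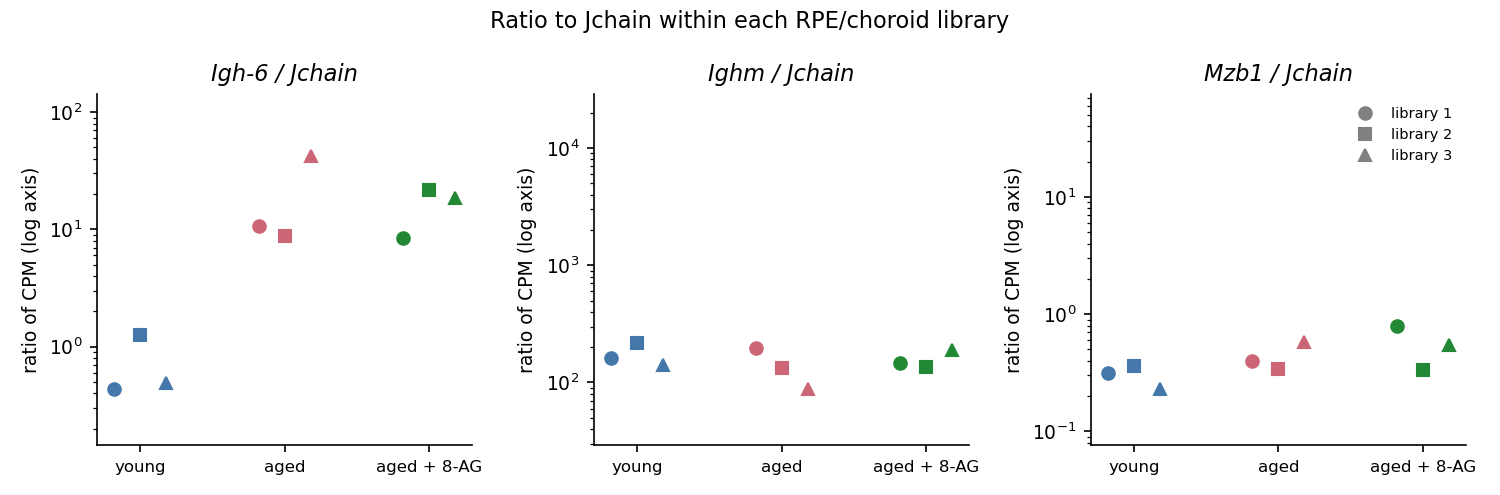
CPM of Igh-6, Ighm and Mzb1 divided by the CPM of Jchain in the same RPE/choroid library (logarithmic vertical axes of equal span; groups on the horizontal axis; a marker shape for each library number). The Igh-6 ratio was 0.433 to 1.26 in young and 8.78 to 42.0 in aged libraries, while the Ighm and Mzb1 ratios of the 3 groups overlapped.

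With 8-AG, RPE/choroid showed a higher Bach2 level than untreated aged RPE/choroid, and no called change of the other 6 members. Bach2 measured 2.52, 1.53 and 0.742 CPM in treated rats, each above the 3 aged values, at 1.60 ± 0.891 CPM against 0.532 ± 0.0694 CPM. It was higher by 1.61 on the log2 scale (standard error 0.57, adjusted p = 1.0 in edgeR with Benjamini-Hochberg adjustment). It was the only called member of 7, where the rule called 1.65% of 16257 genes (1.24% higher), and no gene had an adjusted p under 0.05 (0.0%), while 274 (1.69%) had an unadjusted P under 0.05 and DESeq2 gave 81 genes an adjusted p under 0.05. The call held in 8 of 16 alternatives. It was lost without treated library 1, which had the highest Bach2 level (1.09), without treated library 2 (1.64) and without aged library 1, 2 or 3 (1.58, 1.53 and 1.71). Summing libraries of the same label number (1.57) also ended it. With rod level as a covariate it was 1.57 and called, and 1.25 and not called when treated library 1 was left out of that fit. Rod genes summed to 50500, 786 and 752 CPM in treated libraries.

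The other members ranged widely in treated rats. Igh-6 measured 1.31, 280 and 94.2 CPM, so that treated library 1 lay in the young range and treated library 2 above every other library. Its log2 fold change against aged was -0.18 (standard error 1.5, adjusted p = 1.0 in edgeR, as for the other members here), and it was 0.40, 0.01 and 0.19 without treated library 1, aged library 2 and aged library 3. Jchain measured 0.156, 12.9 and 5.04 CPM (log2 fold change -0.68, standard error 1.37) and Mzb1 0.124, 4.33 and 2.75 CPM (-0.64, standard error 1.16). Without treated library 1 these changes were -0.10 and -0.08. Without aged library 2 the changes of Jchain and Mzb1 were 0.43 and 0.12, while both stayed negative whichever treated library was left out. The direction of the secretory genes was therefore undetermined, since it turned when single treated or aged libraries were left out.

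Cd79b measured 0.0622, 1.44 and 1.29 CPM in treated RPE/choroid, and its log2 fold change was -1.42 (standard error 1.03), and -0.88 without treated library 1. Ms4a1 had 0, 21 and 22 counts, which is 0, 0.583 and 0.480 CPM, all below the 3 aged values, and a count of 0 in library 1 allows a level of up to 0.0933 CPM (3 counts). Its log2 fold change was -1.61 (standard error 1.2) and -1.05 without library 1. Pou2af1 measured 0, 2.25 and 0.939 CPM, with a log2 fold change of -0.72 (standard error 1.39) and -0.14 without library 1. The groups did not overlap for Ms4a1 and Bach2 alone, 2 of the 7 members, against 3.96% of all genes. With rod level as a covariate, Cd79b (-2.31), Ms4a1 (-2.47) and Jchain (-1.9) were called lower, while Igh-6 (-2.55), Pou2af1 (-2.02) and Mzb1 (-1.64) were not, in a fit that called 6.5% of all genes and 3.92% lower. Treated library 1 was the extreme of that covariate. When it was left out of the same fit, Ms4a1 (-1.53) was called lower, and Cd79b (-0.99), Jchain (-0.87), Igh-6 (0.24), Pou2af1 (-0.67) and Mzb1 (-0.7) were not, where 1.32% of all genes were called lower. Without treated library 1 and without the covariate no member was called.

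In retina the members were near the limit of detection, with the exception of Bach2. Over the 9 retina libraries there were 1001 counts of Bach2, 104 of Igh-6, 33 of Jchain, 28 of Mzb1, 4 of Cd79b, 2 of Pou2af1 and none of Ms4a1, which over these libraries allows a level of up to 0.0242 CPM. The only reads of Cd79a and of Cd79al, which RefSeq gives as a synonym, were 1 and 2 reads in young library 1. Bach2 and Igh-6 passed the expression filter. Of these, Igh-6 was called higher and Bach2 lower in aged retina, where the rule called 8.84% of 14588 genes (6.45% higher and 2.39% lower). Both were without overlap between the groups, which held for 35.3% of all genes. Igh-6 reached the level that the filter asks for in all 3 aged and in none of the young libraries, so it could enter the test only by being higher with age, and its call is a description. Bach2 reached it in all 6.

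Bach2 measured 8.94, 11.4 and 10.5 CPM in young retina and 7.10, 5.10 and 5.32 CPM in aged retina. The means were 10.3 ± 1.26 and 5.84 ± 1.10 CPM, and every aged value was below every young one. Rod genes also summed lower in aged retina (34700 to 39000 CPM against 54500 to 59300), as did lens genes (17 to 24 CPM against 151 to 6200), and their part in the Bach2 difference was not tested. The log2 fold change was -0.82 (standard error 0.17), with an adjusted p of 0.00968 in edgeR with Benjamini-Hochberg adjustment, where 14.5% of genes had an adjusted p under 0.05. Across the 14 alternatives the adjusted p ran from 0.00139 to 0.0483 and the change from -0.98 to -0.73. Igh-6 measured 0.694, 0.376 and 0.405 CPM in young and 0.858, 1.34 and 0.829 CPM in aged retina, from 5 to 9 and from 11 to 21 counts. Its log2 fold change of 1.04 (standard error 0.41) did not pass adjustment (adjusted p = 0.122 in edgeR), and the call was lost in 4 of 13 alternatives, with DESeq2 (1.04), without aged library 2 (0.78), without young library 2 (0.89) and without young library 3 (0.91). In aged retina library 2, which had the most Igh-6, erythroid genes summed to 368 CPM, against 77.1 and 84.9 CPM in the other aged libraries and 23.7 to 41.8 CPM in young ones. T and NK cell genes summed to between 0.903 and 1.08 CPM in young and to 2.34, 13.2 and 2.35 CPM in aged retina, without overlap and highest in the same aged library. In treated retina they reached 6.44 CPM in library 2, the treated library with the most Igh-6. The part of blood and of T cells in the Igh-6 difference was not tested.

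The secretory genes Jchain and Mzb1 did not pass the expression filter in retina and were not tested. Jchain had 4, 3 and 1 counts in young, 2, 5 and 3 in aged and 5, 5 and 5 in treated retina. Mzb1 had 7, 1 and 3 counts in young, 4, 2 and 2 in aged and 4, 2 and 3 in treated retina. The 3 treated Jchain levels (0.334 to 0.408 CPM) lay above the 3 aged ones (0.156 to 0.319 CPM), a separation in that direction shown by 4.83% of the tested genes in that comparison. A difference of a few counts was not resolved at this depth. Ighm, the non-member heavy chain gene, was at 4, 5 and 8 counts in young and 21, 19 and 16 in aged retina (log2 fold change 1.65, standard error 0.38). It too reached the filter's level in the aged libraries alone, so it had to differ.

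In treated against aged retina neither tested member was called, where the rule called 0.957% of 14631 genes. The groups of this comparison also differed in labelled RNA type. Bach2 measured 9.58, 9.54 and 5.95 CPM in treated retina. Treated libraries 1 and 2 lay above all aged values, within the young range, and library 3 lay among the aged ones. The log2 fold change was 0.51 (standard error 0.22), below the fold threshold, with an adjusted p of 0.996 in edgeR, and it passed the rule without treated library 3 (0.72) or aged library 1 (0.67). Igh-6 measured 0.695, 1.30 and 1.0 CPM, which differed from aged by -0.03 on the log2 scale (standard error 0.36, adjusted p = 0.997 in edgeR). Ighm measured 0.541, 0.652 and 0.735 CPM against 1.64, 1.21 and 1.11 CPM in aged retina, from 7, 8 and 11 counts, and was called lower at -1.02 (standard error 0.34, adjusted p = 0.996 in edgeR), again with the filter's level reached in the aged libraries alone.

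**Figure D3:**
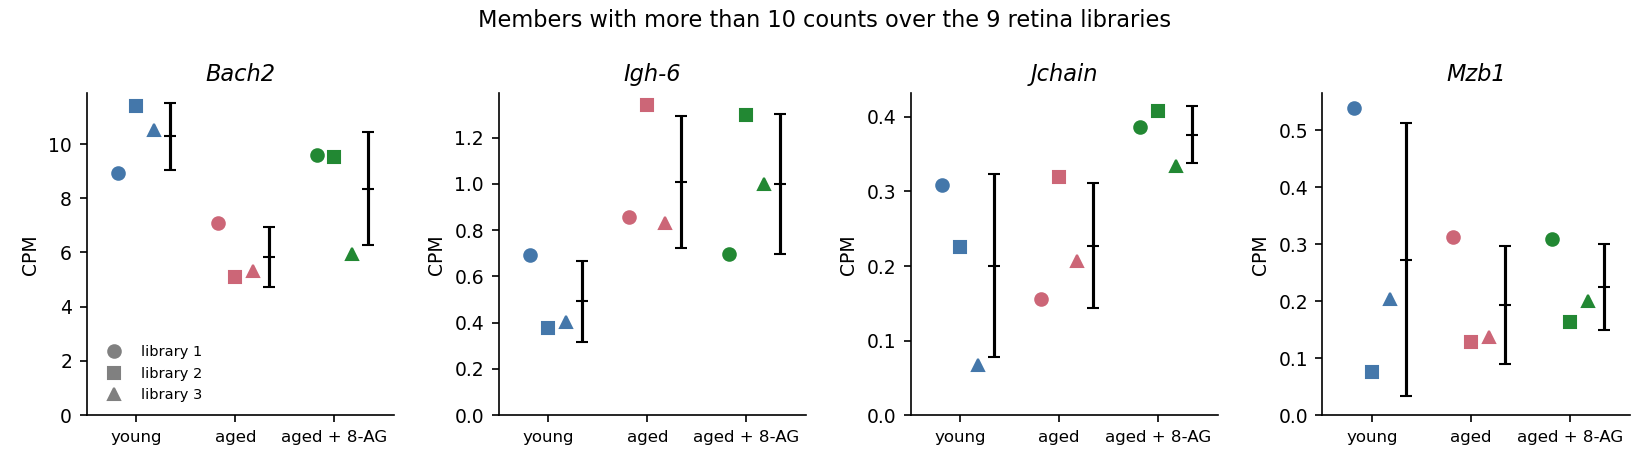
Level of Bach2, Igh-6, Jchain and Mzb1 in the 9 retina libraries (CPM from 0 on the vertical axis; groups on the horizontal axis; a marker shape for each library number; black marks and bars are mean ± SD, n = 3). Bach2 was 5.10 to 7.10 CPM in aged against 8.94 to 11.4 CPM in young retina, and Jchain and Mzb1 rested on at most 7 counts a library.

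Bach2 thus had the same order of group means in separately prepared tissues, young, then treated, then aged. Its aged and young values did not overlap in either tissue. The change with 8-AG was not called in retina, and in RPE/choroid the call was lost without treated library 1. In retina the treated libraries also differed from the young and aged ones in labelled RNA type. Whether the tissues came from the same rats is not stated. Treated values overlapped the young ones in both tissues, and the difference between treated and young rats was not tested. The comparisons with aged rats share the aged libraries within each tissue, so the lower level with age and the higher level with treatment are not independent. Whether aging acted differently on the tissues was tested by an interaction term over 12 libraries, where 6.78% of 16792 genes passed the rule and 0.161% had an adjusted p under 0.05. The change of Igh-6 was larger in RPE/choroid by 4.85 on the log2 scale (standard error 1.23, adjusted p = 0.155 in edgeR). That of Bach2 was more negative in RPE/choroid, by -1.10 (standard error 0.31, adjusted p = 0.212 in edgeR). Both passed the rule. Jchain, Mzb1, Cd79b and Pou2af1 did not, but their 33, 28, 4 and 2 counts over the 9 retina libraries were too few to resolve such a difference.

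**Figure D4:**
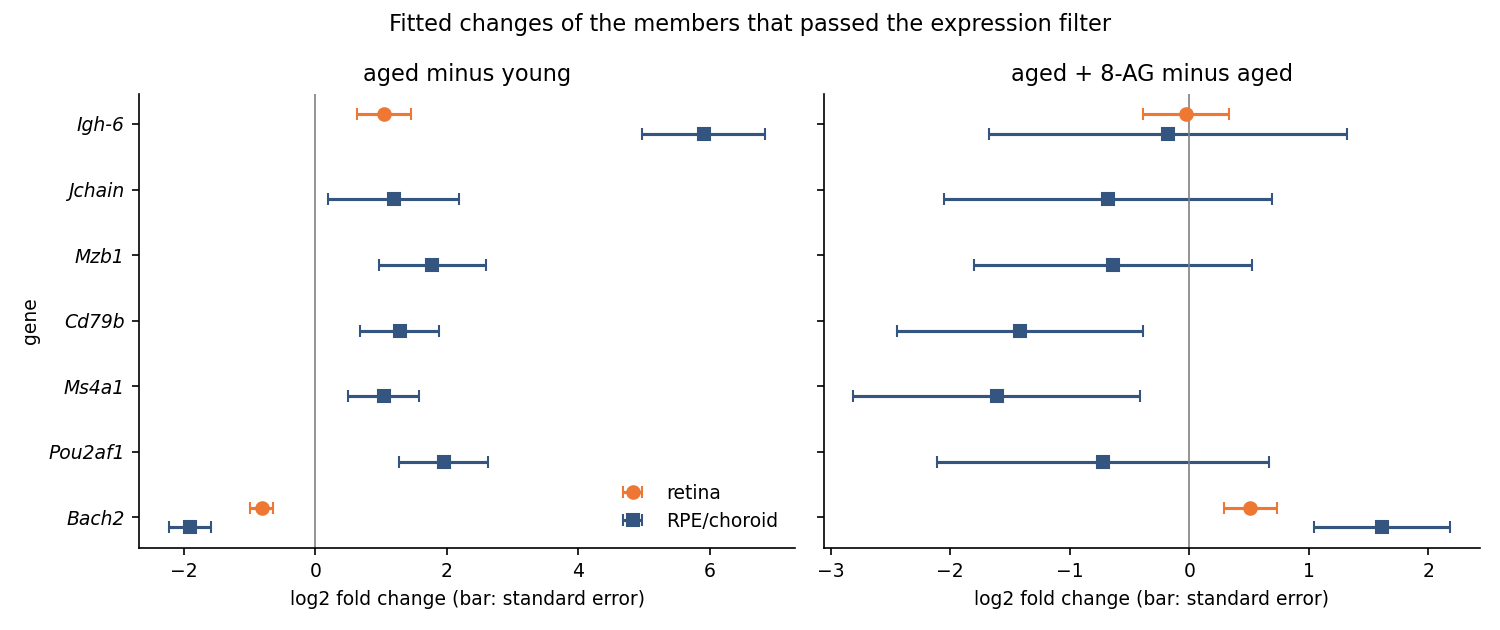
Fitted log2 fold changes (horizontal axis, bars are standard errors) of the members that passed the expression filter, for aged minus young on the left and aged with 8-AG minus aged on the right, circles for retina and squares for RPE/choroid. Igh-6 stood furthest from 0 with age in RPE/choroid (5.91), Bach2 was below 0 with age in both tissues (-0.82 and -1.91), and with 8-AG the bars of Igh-6, Jchain, Mzb1 and Pou2af1 spanned 0.

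Other genes of the B lineage, 87 in 7 lists, are given for each tissue in turn, and the difference between tissues was not tested for the lists. In RPE/choroid none of 68 list genes tested was called with age in edgeR, where 1.35% of all genes were, 2 had an unadjusted P under 0.05 (2.13% of all genes did), and DESeq2 called 1. These shares are near the background. By list, 7 of 11 co-receptor genes, 7 of 12 signalling genes, 4 of 11 transcription factors and 7 of 14 plasma cell genes had a positive change, with median log2 fold changes of 0.09, 0.06, -0.07 and 0.02. Survival and attraction factors had 11 of 13 positive and a median of 0.38, and Fc receptors and transporters 4 of 6 and 0.21.

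With 8-AG in RPE/choroid, 2 of 69 list genes tested were called (2.9%, against 1.65% of all genes), both higher, while DESeq2 called 3 and gave 2 an adjusted p under 0.05. Pik3ap1, an adaptor that links the B cell receptor to PI3 kinase, went from 18, 16.6 and 18.4 CPM in aged to 40.0, 27.4 and 37.4 CPM in treated libraries (log2 fold change 1.01, standard error 0.22, adjusted p = 1.0 in edgeR). It was 0.87, and called, without treated library 1. Cd24, a surface glycoprotein of immature B cells and of epithelia, went from 10.1, 5.10 and 16.7 CPM to 130, 17.5 and 22.5 CPM (2.45, standard error 0.96), and was 0.91, not called, without that library. Surface and glandular epithelium genes summed to 2020, 47.4 and 401 CPM in the treated libraries and 33.2 to 72.4 CPM in aged ones, and their part in the Cd24 value was not tested. The signs of the lists depended on treated library 1. With it, 12 of 14 plasma cell genes, 9 of 11 transcription factors, 8 of 11 co-receptor genes, 8 of 12 signalling genes, 9 of 14 survival and attraction genes and 5 of 6 Fc receptors and transporters had a negative change, and the medians ran from -0.28 to -0.08, against 0.01 for all genes. Without it, the negative ones were 6, 5, 6, 2, 9 and 1 in the same order, and the plasma cell median went from -0.17 to 0.14, against -0.01 for all genes. That fit called 3 of 69 list genes (4.35%), against 3.35% of all genes.

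In retina, 24 of 45 list genes tested were called higher with age and 1 lower, and 23 of the 45 had an adjusted p under 0.05 in edgeR, against 6.45% of all genes called higher, 2.39% called lower and 14.5% with an adjusted p under 0.05. These counts are a description, since the filter favoured genes that were higher in a group: 45 of the 71 list genes found passed it, 4 of them reached its level in aged libraries alone and none in young libraries alone. Of the 24 called higher, 15 reached it in all 6 libraries and 9 did not. The 15 were 45.5% of the 33 list genes that reached it in all 6. Of all genes that did so, 4.93% were called higher. Among Fc receptors and transporters 5 of 6 rose. Fcgr3a, an activating Fc receptor, went from 0.771, 0.903 and 0.608 CPM to 7.02, 8.48 and 4.15 CPM (log2 fold change 3.1, standard error 0.33, adjusted p = 3.64e-04 in edgeR). Trim21, a cytosolic receptor for antibody, rose by 1.61, Fcgrt, the neonatal Fc receptor that recycles IgG, by 0.74 and Fcer1g, the shared signalling chain, by 2.06. Among co-receptors 4 of 6 rose, and the inhibitory receptor Fcgr2b went from between 1.54 and 1.66 CPM to between 4.77 and 10.5 CPM (2.24, adjusted p = 0.00129 in edgeR). The inhibitory lectin Cd22 rose by 2.40, the tetraspanins Cd53 by 1.58 and Cd37 by 1.41. In the signalling list 8 of 10 rose, with Lyn, the kinase that starts receptor signalling, at 1.58 (adjusted p = 4.66e-04 in edgeR), Blnk at 1.59, Plcg2 at 1.48 and Dapp1 at 1.21.

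Of the transcription factors, 3 of 9 rose in aged retina, Spi1 by 2.19, Irf8 by 1.88 and Ikzf1 by 1.77. Myeloid cells also use all of these. Spi1 was among the 4 list genes that reached the filter's level in aged libraries alone, so its rise is a description. The B cell attracting chemokine Cxcl13 went from 2.39, 2.41 and 2.97 CPM to 10.5, 14.2 and 6.43 CPM (log2 fold change 2.0, adjusted p = 0.00297 in edgeR), and Tnfsf13, which encodes the plasma cell survival factor APRIL, rose by 0.95. In the plasma cell list 1 of 9 rose, Sdf2l1, by 0.77 (adjusted p = 0.0684 in edgeR), and 1 fell. That was Prdm1, which encodes the plasma cell regulator BLIMP1 that photoreceptor precursors also use, from 90.4, 91.7 and 81.1 CPM to 48.5, 44.8 and 53.7 CPM (-0.84, standard error 0.08, adjusted p = 2.38e-04 in edgeR).

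Many of the list genes that rose are also used by microglia and macrophages, whose 12 marker genes summed to between 47.6 and 48.5 CPM in young and between 146 and 253 CPM in aged retina. The defining B cell genes Ms4a1 and Cd79b were at or near 0 counts in the same libraries, and the part of myeloid cells in the list changes was not tested. In treated against aged retina, which also differed in labelled RNA type, 3 of 45 list genes were called (6.67%, against 0.957% of all genes). Fcgr2a was higher (log2 fold change 1.23), Fcgr3a lower (-0.68) and Ighm lower as given above. This count is a description, since Fcgr2a and Ighm did not reach the filter's level in all 6 libraries. Of the 40 list genes that did, 0 were called higher and 1 lower, against 32 and 41 of 13847 genes. None of the 45 had an adjusted p under 0.05 in edgeR (0.0205% of all genes did), and DESeq2 also gave none. An unadjusted P under 0.05 was found for 3 of the 45 (3.67% of all genes).

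The genes whose levels followed the members most closely were found among all filtered genes with a symbol and a mean of at least 1 CPM. For Igh-6 in RPE/choroid, the member with the highest mean level there, the 5 nearest of 14533 genes over the 9 libraries were Serf1 (Pearson's r = 0.956), Aven (0.953), Cenpm (0.946), Cxcl1 (0.934) and AABR07039210.2 (0.922). Over the 8 libraries without treated library 1 their coefficients were between 0.945 and 0.98. Their levels moved far less than that of Igh-6: Aven, an apoptosis inhibitor, ranged from 2.77 to 4.24 CPM, and Cxcl1, a neutrophil attracting chemokine, from 0.436 to 3.44 CPM. For Bach2 in retina the 5 nearest of 14070 genes were Spast (0.960), which encodes the microtubule severing enzyme spastin, Hacd3 (0.958), RGD1307929 (0.954), Pgap1 (0.948) and Dcaf6 (0.939). Spast ranged from 66.8 to 88.6 CPM. None of these is a gene of the B lineage lists, and the coefficients carry no test.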

How the data were processed

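The deposited retina table holds expected counts that the authors obtained with RSEM, without normalization; 11.5% are not whole numbers, and they were rounded here. RPE/choroid values are raw counts per gene as deposited by the authors, whose counting program is not given in the sources used here. Per the labels, build Rnor_6.0, Bowtie2 2.1.0, RSEM 1.2.15 and edgeR were used, without stating which step served which tissue. The authors' TMM-normalized signal for retina served to pair symbols with identifiers by matching values and to read Cd79a; of 14723 identifiers also named by the RPE/choroid tables, 91.3% had the same name. The authors' tables of fold changes and p-values hold their own comparisons and gave symbols only.

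All genes were fitted by edgeR 4.0.16 (R 4.3.3) for 1 comparison at a time, on the 6 libraries it sets against each other (filterByExpr, TMM, estimateDisp, glmQLFit with robust=TRUE, glmQLFTest), and adjusted p-values (Benjamini-Hochberg) run over all genes tested. The study's rule of a fold change over 1.5 with P under 0.05 gave the calls. Standard errors are the log2 fold change divided by the square root of F. With 3 libraries a group, the smallest exact permutation p is 0.1, so that test was not used, and P before adjustment serves only for calls. The fit was tested on simulated data, where changes put in were recovered less often for RPE/choroid than for retina. A count of 0 is given with the level that 3 counts would have. Libraries are not stated to come from separate animals, so P measures the spread between libraries. Intervals of counting error are not given.

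The members and gene lists were chosen with earlier results of these data known. All 8 members are named. From each list, genes past the rule are named, at most 4 in order of P, and for the member with the highest mean in each tissue the 5 genes with the highest Pearson's r of log2(CPM + 0.5). Ighm beyond this rule, and the ratios to Jchain, were chosen after their values were seen. The alternatives changed the size factors (RLE), the tool (DESeq2 1.42.0), the filter (none, or a minimum of 10 counts per library), the libraries fitted (3 groups together, each library left out, or same-numbered ones summed), rounding, the robust setting, and the use of replicate number as a block. Rod level as a covariate, with and without treated library 1, and the gene lists and correlations without treated library 1, were added after seeing the data. Tables and figures were made with Python, pandas and matplotlib.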

Additional observations from a re-analysis of the deposited data

Results flagged for a closer look

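The aging changes of 2 members differed between the tissues by the rule of a fold change over 1.5 with P under 0.05, in a test of the difference itself. For Igh-6 the change in RPE/choroid minus that in retina was 4.85 on the log2 scale (standard error 1.23), with all 3 aged libraries above all 3 young ones in each tissue. For Bach2 the difference was -1.10 (standard error 0.31), with all 3 aged libraries below all 3 young ones in each tissue. Neither passed adjustment over 16792 genes in edgeR (adjusted p = 0.155 and 0.212). Across alternatives the adjusted p ran from 0.105 to 0.467 for Igh-6 and from 0.191 to 0.495 for Bach2. RPE/choroid libraries were made with enrichment for full-length transcripts because little RNA was recovered and retina libraries were not, per the labels, and this difference cannot be told apart from tissue. Groups of 3 libraries are too small for the test of single outlying samples.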

How the results depend on the processing

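Of 356 values for single members under the alternatives, 312 kept their direction and their side of the threshold, 18 lost the call, 14 gained it and 12 reversed. Every reversal came from leaving out a single library, in values that were not called; 1 of them, Igh-6 with 8-AG in RPE/choroid (0.24), also had rod level as a covariate. Left-out ranges that crossed 0 were, with 8-AG in RPE/choroid, -1.57 to 0.40 for Igh-6, -1.89 to 0.43 for Jchain and -1.37 to 0.12 for Mzb1, with 8-AG in retina -0.25 to 0.24 for Igh-6, and for the difference between tissues -0.17 to 2.32 for Jchain, -1.20 to 3.79 for Cd79b and -1.01 to 1.94 for Pou2af1.

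Counts of called members moved as follows. With age in RPE/choroid (3 called) DESeq2 called 5, and leaving out a library gave 2 to 6. With age in retina (2 called) DESeq2 and the minimum of 10 counts in every library each called 1, losing Igh-6, which the minimum left untested, and leaving out a library gave 1 to 2. With 8-AG in RPE/choroid (1 called) summing libraries that share a number called 0, rod level as a covariate (added after seeing the data) called 4 (Jchain, Cd79b and Ms4a1 lower, Bach2 higher), and leaving out a library gave 0 to 1. With 8-AG in retina (0 called) leaving out a library gave 0 to 1.

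Counts over all genes moved more. With age in RPE/choroid the 217 genes became 384 by DESeq2, 131 with all 3 groups in a single fit, 364 without a filter and 1140 with the rod covariate, and 213 to 414 when a library was left out. With 8-AG in RPE/choroid the 269 became 755, 465, 503 and 1057 under the same settings, 85 with libraries summed, 555 with the rod covariate and treated library 1 left out, and 86 to 733 when a library was left out. With 8-AG in retina the 140 became 92 with the count minimum and 318 without a filter, and 142 to 255 when a library was left out, and DESeq2 moved the share called higher from 55.0% to 69.1%. With age in RPE/choroid that share went from 53.0% to 64.6% by DESeq2, 65.6% with all 3 groups, 63.9% without aged library 3 and 79.0% with the rod covariate. With 8-AG in RPE/choroid it went from 74.7% to 34.8% without aged library 3, 48.4% without treated library 1, 87.0% without treated library 3 and 39.6% with the rod covariate. With 8-AG in retina it was 43.9% without aged library 2 and 65.3% without treated library 2. Leaving out a library with age in retina gave 1098 to 1366 for the 1289 genes called. For the difference between tissues the 27 genes at an adjusted p under 0.05 became 4 with RLE size factors and 11 with the count minimum, and 0 to 49 when a library was left out. The causes were not tested.

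Whether the replicate numbers pair the libraries is not settled: correlations of same-numbered deviations ran from -0.615 to 0.665, with 3 libraries a group. With the replicate number as a block, genes called numbered 138 with age in RPE/choroid, 306 with 8-AG in RPE/choroid, 1266 with age in retina and 158 with 8-AG in retina, members called 3, 0, 2 and 0 in the same order, and genes differing between tissues 2. In RPE/choroid the block left Pou2af1 with age (2.12) and Bach2 with 8-AG (1.45) not called, and Cd79b with age (1.39) called. In retina 6 members had too few counts to be tested.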
